A study of Mus musculus with 11 samples.

Results

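The 37 genes described here code for the machinery of regulated release: proteins of the synaptic vesicle membrane, the SNARE fusion apparatus, vesicular transmitter transporters, scaffolds of the active zone, granins of dense-core vesicles, and a few adhesion and postsynaptic proteins. They were taken by symbol from a list of that machinery, with no threshold on their values, and are 37 of 38406 genes in the count table. All 37 were present and all 37 passed the low-count filter, Slc17a6 only through the group where it was highest.

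Gene expression was read in 11 libraries of mouse cerebellar tumours (medulloblastoma models, strain CD1), frozen fresh and sequenced from the 3′ ends of mRNA. The MYC-Gfi1 group (n = 2) and the MYC-Otx2 group (n = 3) carried constitutive expression of the oncogene pair in their name. In the S100b MYC-Gfi1 group (n = 3) the same MYC and Gfi1 pair was expressed conditionally in S100b-positive cells, S100b being a glial calcium-binding protein. In the N1ICD group (n = 3), MYC and Gfi1 were joined by N1ICD, the active intracellular part of the Notch1 receptor, and expressed conditionally in Math1-positive cells, Math1 (Atoh1) being the transcription factor of granule neuron progenitors. MYC is thus shared by all 4 groups and Gfi1 by all but MYC-Otx2; no library here is labelled as normal cerebellum or as a tumour without an introduced oncogene. The labels do not give the driver, the age of the mice, or whether a group's replicates are different mice; the p-values therefore measure only the spread between these libraries, which may be technical.

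A neuron releases transmitter when a vesicle, filled by a transporter in its membrane, docks at the active zone and fuses by the zippering of SNARE proteins after synaptotagmin has bound calcium. Peptides and granins leave by a related route in dense-core vesicles, which neuroendocrine cells also hold. Mature granule cells and Purkinje cells of the normal cerebellum express these genes strongly, and Group 3 medulloblastoma, which the constitutive models stand for, is a poorly differentiated tumour. In bulk RNA, fewer cells of a type and less RNA per cell cannot be told apart.

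Because the genes largely moved together across libraries, their start-site regions were searched for a few motifs known from neuronal promoters. RefSeq windows (GRCm38.p6, 250 bases before to 50 after each annotated start) were held for 32 of the 37 genes, not for Syt4, Snap25, Vamp2, Camk2a and Nptxr. The left arm of the RE1 element, TTCAGCACC, to which the repressor REST binds, was searched on both strands. It stood in the windows of 4 of these 32 genes (12.5%), against 0.433% of 27025 genes. The right arm core GGACAGC was in 2 of 32 genes (7.59% of all genes), and in both of them (Scg2 and Unc13a) it followed a left arm. These 30-base stretches are shown because they hold the RE1 arms, in capitals, and Rest itself is measured further on:
Scg2, chr1:79440025-79440054, plus strand: TTCAGCACCGGACAGCtcctcggcttatag
Unc13a, chr8:71671727-71671756, plus strand: TTCAGCACCgggggcgcGGACAGCgcctga
Syn1, chrX:20921121-20921150, minus strand: TTCAGCACCgcggtcagagccttcgcctcc
Nlgn1, chr3:26154110-26154139, minus strand: TTCAGCACCctggttactataacagcaagt

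In Scg2 the arms were adjacent and in Unc13a they were 8 bases apart, whereas Syn1 and Nlgn1 held the left arm alone. Counted along the gene from the annotated start of the window, the left arms lay at -7 (Scg2), 23 (Unc13a), -232 (Syn1) and -153 (Nlgn1). The Nlgn1 arm was in the window of a start inside the gene (chr3:26153937-26154236). The window near the 5′ end of Nlgn1 (chr3:26331860-26332159) held none. The cyclic AMP response element TGACGTCA, a palindrome read on both strands, stood in the windows of 3 of the 32 genes (9.38%), against 2.03% of all genes. Its stretches are shown with the element in capitals:
Scg2, chr1:79440076-79440105, minus strand: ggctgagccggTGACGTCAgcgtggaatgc
Chgb, chr2:132781559-132781588, plus strand: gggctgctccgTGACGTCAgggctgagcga
Syn1, chrX:20921059-20921088, minus strand: caaaggctgacTGACGTCActcactagccc

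The E-box CAGCTG, also a palindrome, was in 11 of 32 genes (34.4%) and in 18.3% of all genes. A match describes letters only; no binding was measured in these tumours.

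**Figure D1:**
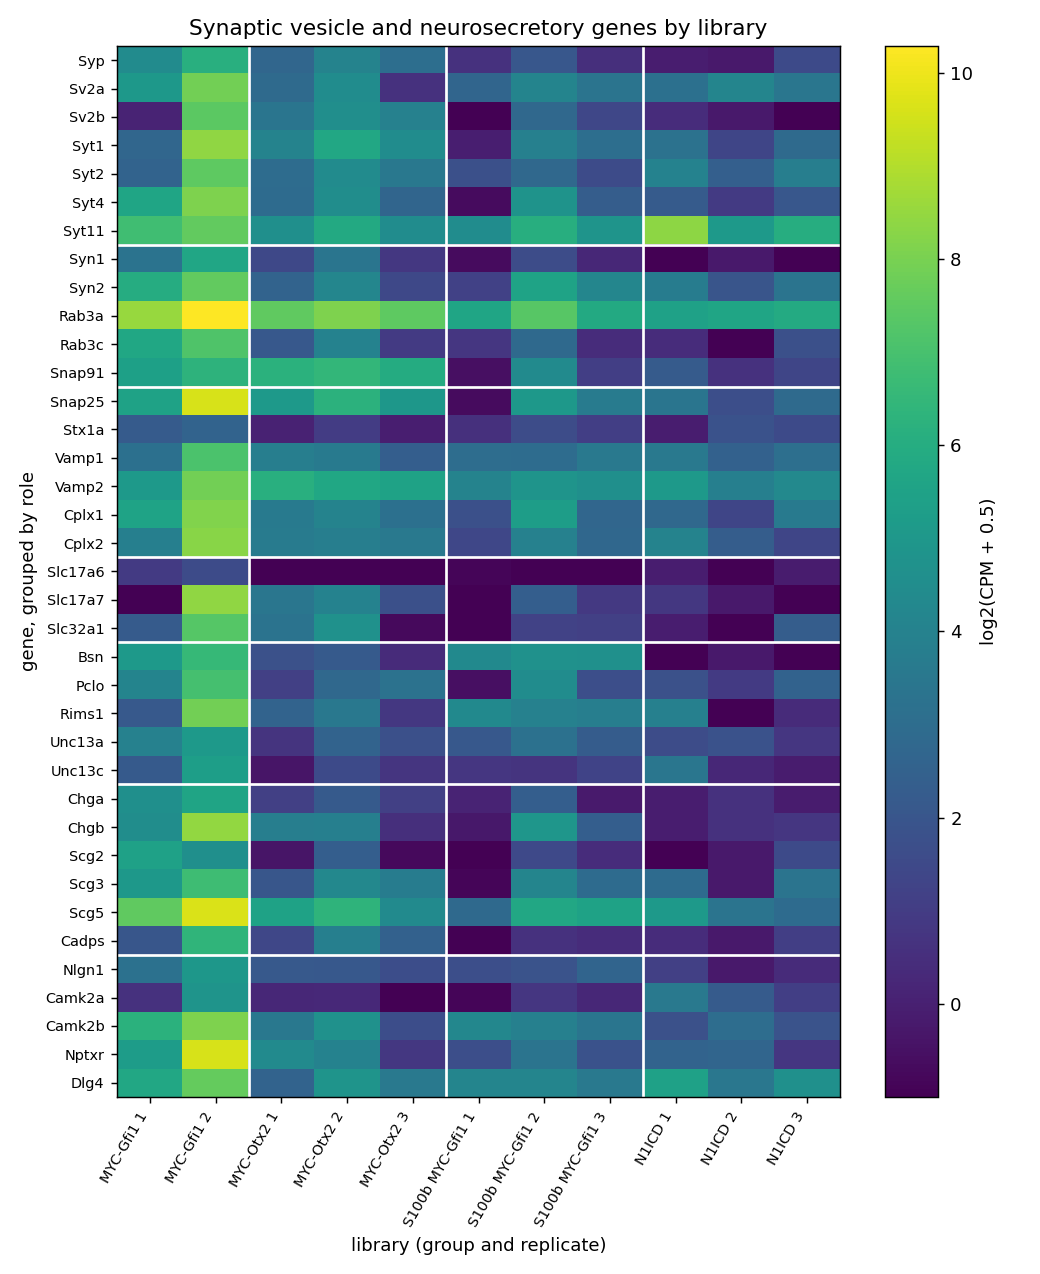
Level of the 37 genes (rows, in blocks by role) in the 11 libraries (columns, by group and replicate) as log2(CPM + 0.5), where CPM, the usual unit of count tables, is a gene's count as a share of its library's scaled total; white lines part the roles and the groups. MYC-Gfi1 replicate 2 held the highest level of 34 of the 37 genes.

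Library totals ran from 2584768 to 15186763 counts and were lowest in the N1ICD group, and a count of 3 corresponded to 0.194 to 1.29 CPM. Summed over the 37 genes, the level was 1483 CPM in MYC-Gfi1 replicate 1 and 8685 CPM in replicate 2. The MYC-Otx2 libraries summed to 627, 1072 and 508 CPM (736 ± 297, SD, n = 3). The S100b MYC-Gfi1 libraries gave 208, 744 and 335 CPM (429 ± 280, SD, n = 3), and the N1ICD libraries gave 646, 193 and 294 CPM (378 ± 238, SD, n = 3). Both MYC-Gfi1 libraries lay above the other 9, whose groups overlapped. Mitochondrially encoded genes took 5.18% to 6.00% of counts in the constitutive groups, 14.7% to 18.5% in the S100b MYC-Gfi1 group and 23.2% to 27.6% in the N1ICD group; their part in the results was not tested beyond a fit without them, given at the end. The library names follow a style shared by the constitutive groups and another in each of the remaining groups, so any handling that went with the name cannot be told apart from those groups.

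MYC-Gfi1 replicate 2 stood apart from replicate 1 in these genes: 36 of 37 were higher in it, all but Scg2, with a median log2 difference of 2.48 against 0.03 over all genes tested. Markers of normal cerebellar cells did the same. The 12 mature granule cell markers summed to 259 CPM in replicate 1 and 4381 CPM in replicate 2, against 140 to 684 CPM over the 10 libraries other than replicate 2. The strongest of them were Nrep at 19.6 and 602 CPM, Cbln3 at 2.10 and 1159 CPM and Neurod1 at 83.0 and 482 CPM. The 12 Purkinje cell markers summed to 59.4 and 2474 CPM (36.9 to 245 CPM in those 10 libraries), led by Rgs8 at 3.61 and 660 CPM, Itpr1 at 15.3 and 286 CPM and Pcp4 at 5.36 and 367 CPM, and the 9 markers of GABA interneurons to 17.6 and 618 CPM (6.34 to 76.6 CPM). The 8 astroglial markers summed to 518 and 5140 CPM, with 2878 CPM in N1ICD replicate 1, and the 8 genes of cerebellar identity to 33.9 and 1808 CPM. The 6 markers of unipolar brush cells summed to 26.0 and 480 CPM, and the 8 myelin markers to 273 and 842 CPM. In replicate 2 every marker of the granule, Purkinje, interneuron, brush cell, astroglial, myelin and cerebellar identity lists was detected; in replicate 1 the markers at 0 counts numbered 0 of 12, 2 of 12, 2 of 9, 2 of 6, 0 of 8, 1 of 8 and 2 of 8 in that order. The 10 neuroendocrine transcription factors summed to similar levels in the replicates, 367 and 420 CPM, above the 4.53 to 173 CPM of the remaining 9 libraries. Single factors, however, differed between the replicates in opposite directions. Among them Prox1 was at 168 and 102 CPM, St18 at 4.08 and 295 CPM, and Insm1, a driver of neuroendocrine differentiation, at 85.6 and 3.63 CPM. The part of admixed normal tissue in the levels of MYC-Gfi1 replicate 2 was not tested, and each comparison with this group is given with and without that library.

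**Figure D2:**
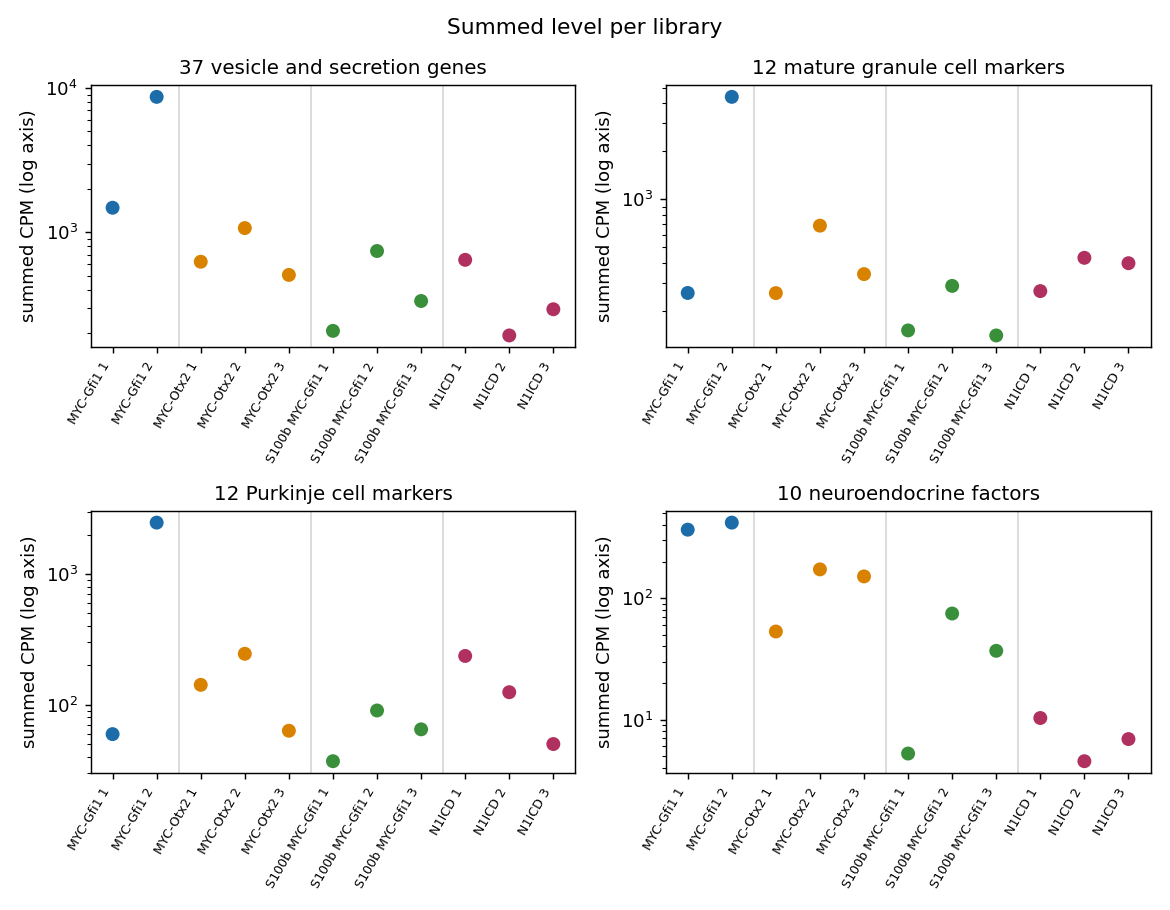
Summed CPM (log axis) per library of the 37 genes, of mature granule cell markers, of Purkinje cell markers and of neuroendocrine factors; each point is a library, coloured by group. MYC-Gfi1 replicate 2 is the highest library in all 4 panels, but in the neuroendocrine panel replicate 1 lies beside it, at 367 against 420 CPM. Those sums hide single factors that differed between the replicates in opposite directions.

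Within the other groups 1 library also tended to be the highest. MYC-Otx2 replicate 2 was the highest of its group for 31 of the 37 genes and also had the highest granule and Purkinje marker sums of that group, 684 and 245 CPM. S100b MYC-Gfi1 replicate 2 was the highest of its group for 30 genes. The 15 pan-neuronal genes summed there to 994 CPM, against 170.5 and 213 CPM in replicates 1 and 3. In the same order, cerebellar identity genes summed to 187 against 13.7 and 52.0 CPM, and granule markers to 287 against 151 and 140 CPM. Purkinje markers summed to 90.2 against 36.9 and 64.7 CPM, and interneuron markers to 28.6 against 6.34 and 14.1 CPM. Its astroglial, brush cell and myelin sums were not the highest of the group. N1ICD replicate 1 was the highest of its group for 19 genes. Photoreceptor markers, by contrast, summed to 110, 41.0 and 170 CPM in the MYC-Otx2 libraries and to 1.74 to 6.86 CPM in the other 8, and did not follow the vesicle genes.

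The largest set of calls came from the comparison of N1ICD with constitutive MYC-Gfi1 tumours. In one edgeR quasi-likelihood fit of the 4 groups, with p-values adjusted over 15228 genes and called at 0.05, 19 of the 37 genes were lower and 0 higher in N1ICD tumours. Of all genes tested, 11.5% were called and 6.05% were called lower. Every N1ICD library lay below both MYC-Gfi1 libraries for 26 of the 37 genes (19.8% of all genes), and the median log2 difference was -4.61 (-0.01 over all genes). When MYC-Gfi1 replicate 2 was left out, 4 genes stayed called (Syp, Rab3a, Bsn and Camk2b; 4.94% of all genes) and the median was -2.47, with 32 of 37 differences negative. Without N1ICD replicate 2 or 3, 6 genes were called in each case (5.28% and 5.86% of all genes).

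S100b MYC-Gfi1 tumours were lower than constitutive MYC-Gfi1 tumours in 5 genes (Syp, Rab3a, Chga, Camk2b and Nptxr), with 0 higher; 4.35% of all genes were called and 2.01% called lower. Their libraries lay below both MYC-Gfi1 libraries for 27 of the 37 genes (18.9% of all genes), with a median of -3.90 (0.01 over all genes). With that MYC-Gfi1 library left out edgeR called 0 of the 37 (0.374% of all genes) and the median was -1.53; at an unadjusted p under 0.05, 10 of the 37 passed (16.1% of all genes). Without S100b MYC-Gfi1 replicate 1 or replicate 3, edgeR also called 0, in fits that called 0.0794% and 0.365% of all genes.

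MYC-Otx2 tumours were lower than MYC-Gfi1 tumours in 5 genes (Bsn, Camk2b, Unc13a, Chga and Dlg4), with 0 higher; 5.46% of all genes were called and 3.03% called lower. The groups did not overlap for 25 of 37 genes, all lower in MYC-Otx2 (23.6% of all genes), and the median was -3.34 (-0.14 over all genes). Without MYC-Gfi1 replicate 2 only Bsn stayed called (1.34% of all genes), the median was -1.43, and 11 of 37 differences were above 0. Without MYC-Otx2 replicate 1, 2 or 3 the count was 0, 2 and 1, beside 0.573%, 1.53% and 0.430% of all genes.

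Comparisons that leave the MYC-Gfi1 group aside gave few calls. N1ICD tumours were lower than MYC-Otx2 tumours in 4 genes (Bsn, Rab3a, Snap91 and Syp); 21.8% of all genes were called and 9.76% called lower, so 4 of 37 is a share near the background. The N1ICD libraries lay below the MYC-Otx2 libraries for 14 of 37 genes (20.8% of all genes), and the median was -1.48 (0.14 over all genes). Leaving out any of the 6 libraries took the count to 0 or 1, with 10.9% to 18.4% of all genes called. S100b MYC-Gfi1 differed from MYC-Otx2 in Bsn alone, which was higher (17.9% of all genes were called and 10.0% called higher); 8 of 37 genes lay below without overlap (21.8% of all genes) and the median was -0.42 (0.17 over all genes). N1ICD differed from S100b MYC-Gfi1 in Bsn alone, which was lower (1.21% called, 0.407% called lower); 4 of 37 lay below without overlap (15.1% of all genes), with a median of -0.84 (-0.06 over all genes). These 6 comparisons share groups and are not independent of each other.

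**Figure D3:**
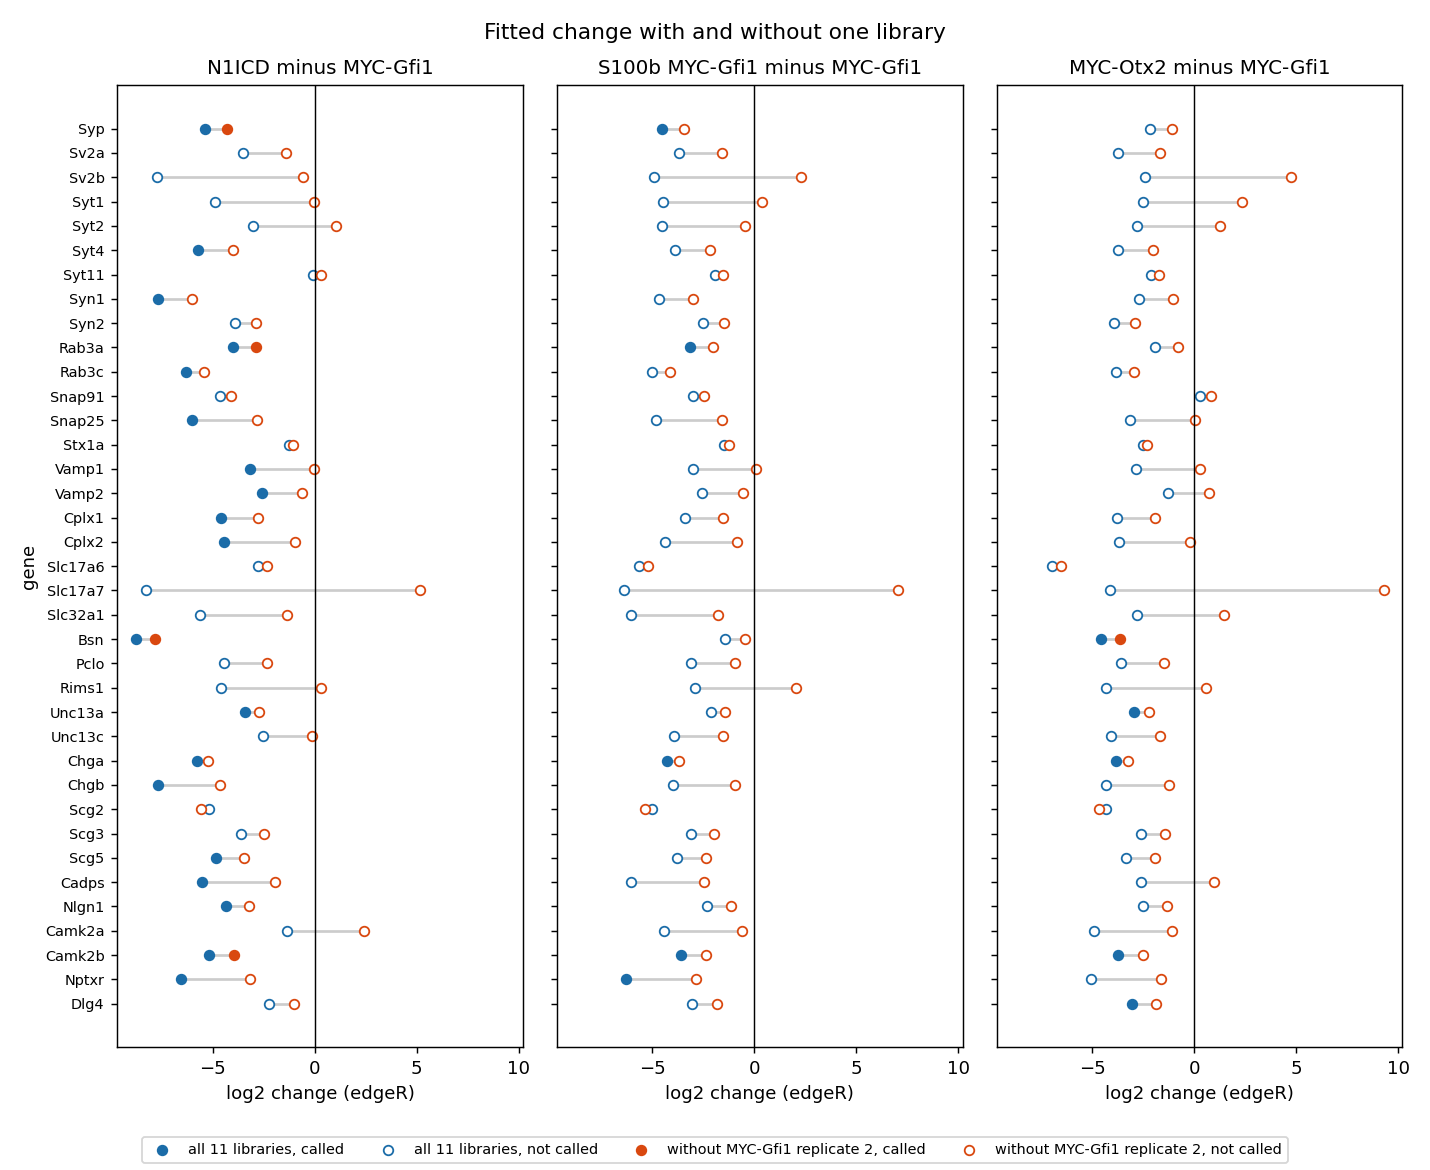
Fitted log2 change of each of the 37 genes in the comparisons with the MYC-Gfi1 group, from all 11 libraries (blue) and without MYC-Gfi1 replicate 2 (orange); filled points were called at an adjusted p of 0.05, open points were not, and grey lines join the same gene. Filled orange points remain for Syp, Rab3a, Bsn and Camk2b in the N1ICD panel, for Bsn in the MYC-Otx2 panel, and for 0 genes in the S100b panel.

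Of the 7 vesicle membrane proteins, 2 were lower in N1ICD than in MYC-Gfi1 tumours (Syp and Syt4), and Syp was also lower in S100b MYC-Gfi1. For this and each later role, the shares of all genes called are those given with each comparison above. Syp codes for synaptophysin, an abundant vesicle membrane protein used as a neuronal marker in pathology. It was at 21.3 and 68.1 CPM in MYC-Gfi1, 6.22, 16.2 and 7.97 CPM in MYC-Otx2, 1.04, 3.73 and 0.938 CPM in S100b MYC-Gfi1 and 0.429, 0.349 and 2.43 CPM in N1ICD. The MYC-Gfi1 libraries are the highest, MYC-Otx2 lies between, and the S100b and N1ICD groups overlap at the bottom. The log2 difference was -5.38 ± 0.98 (SE here and after such values; adjusted p = 0.0119) for N1ICD against MYC-Gfi1, and -4.32 ± 1.05 (adjusted p = 0.0494) without MYC-Gfi1 replicate 2. Against MYC-Otx2, N1ICD differed by -3.24 ± 0.91 (adjusted p = 0.0310). That call was lost when any 1 library of these groups other than N1ICD replicate 3 was left out (adjusted p 0.0524 to 0.0921). With limma-voom it was also lost (adjusted p = 0.121). S100b against MYC-Gfi1 gave -4.54 ± 0.88 (adjusted p = 0.0271), and -3.47 ± 0.96 (adjusted p = 0.136) without MYC-Gfi1 replicate 2. An antisense gene, Gm14703, overlaps the 3′ end of Syp (chrX:7638471-7653256), and with no strand setting given the reads of both cannot be told apart.

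Syt4, a synaptotagmin that does not bind calcium in the usual way and is found on dense-core vesicles, was at 48.6 and 273 CPM in MYC-Gfi1, 7.20, 22.9 and 5.89 CPM in MYC-Otx2, 0.129, 27.7 and 4.54 CPM in S100b MYC-Gfi1 and 4.29, 1.39 and 3.65 CPM in N1ICD. S100b MYC-Gfi1 replicate 2 is well above its partners. The N1ICD difference from MYC-Gfi1 was -5.71 ± 1.57 (adjusted p = 0.0449), and -3.98 without MYC-Gfi1 replicate 2. The call was lost there and with DESeq2 and limma-voom. Syt1, the fast calcium sensor of release, was not called by edgeR in any comparison (DESeq2 called it in N1ICD and S100b MYC-Gfi1 against MYC-Gfi1) and differed widely between the MYC-Gfi1 libraries: it was at 6.06 and 343 CPM in MYC-Gfi1, 15.8, 54.3 and 21.8 CPM in MYC-Otx2, 0.453, 14.8 and 8.05 CPM in S100b MYC-Gfi1 and 9.0, 2.09 and 6.90 CPM in N1ICD. Replicate 1 of MYC-Gfi1 lies inside the range of the S100b and N1ICD groups and below MYC-Otx2.

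Syt11, a synaptotagmin without calcium binding that also occurs in glia, had its highest value in an N1ICD library: it was at 114 and 191 CPM in MYC-Gfi1, 23.9, 58.3 and 22.2 CPM in MYC-Otx2, 22.1, 68.0 and 28 CPM in S100b MYC-Gfi1 and 327, 33.8 and 65.3 CPM in N1ICD. In that library, N1ICD replicate 1, the astroglial markers summed to 2878 CPM against 70.1 and 184 CPM in replicates 2 and 3; their part in the value was not tested. The remaining members, the vesicle glycoproteins Sv2a and Sv2b and the calcium sensor Syt2, were not called in the edgeR fit of 11 libraries; DESeq2 called all 3 in N1ICD and in S100b MYC-Gfi1 against MYC-Gfi1. Without MYC-Gfi1 replicate 2 the N1ICD difference of Syt2 turned from -3.03 to 1.04, and the MYC-Otx2 difference of Sv2b from -2.42 to 4.77, both on the log2 scale.

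Among the 5 genes of synapsins, Rab3 GTPases and the coat adaptor, 3 were lower in N1ICD than in MYC-Gfi1 tumours (Rab3a, Syn1 and Rab3c). Rab3a, the GTPase that tethers vesicles at the active zone, was at 372 and 1250.1 CPM in MYC-Gfi1, 184, 272 and 178 CPM in MYC-Otx2, 49.0, 166 and 57.1 CPM in S100b MYC-Gfi1 and 43.7, 49.2 and 59.2 CPM in N1ICD. The order of the groups is that of Syp, with S100b MYC-Gfi1 replicate 2 near the MYC-Otx2 libraries. The N1ICD difference from MYC-Gfi1 was -4.00 ± 0.61 (adjusted p = 0.00695), and -2.88 ± 0.56 (adjusted p = 0.0279) without MYC-Gfi1 replicate 2. Against MYC-Otx2 the N1ICD difference was -2.06 ± 0.54 (adjusted p = 0.0256). That call was lost when any 1 of the 6 libraries was left out (adjusted p 0.0513 to 0.0721), and with limma-voom. S100b MYC-Gfi1 against MYC-Gfi1 gave -3.16 ± 0.59 (adjusted p = 0.0263), and -2.03 ± 0.56 (adjusted p = 0.137) without MYC-Gfi1 replicate 2. Mpv17l2, on the other strand, overlaps the 3′ end of Rab3a (chr8:70754679-70758677).

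Syn1, which codes for synapsin I, the protein that holds vesicles in the reserve pool, was at 9.21 and 50.1 CPM in MYC-Gfi1, 2.26, 10.1 and 1.27 CPM in MYC-Otx2, 0.129, 2.56 and 0.704 CPM in S100b MYC-Gfi1 and 0, 0.349 and 0 CPM in N1ICD. The N1ICD group held 1 count in all, so the ratio of MYC-Gfi1 to N1ICD was 210 with an exact 95% counting interval of 37.5 to 8321, which covers counting error only. The fitted difference was -7.69 ± 1.71 (adjusted p = 0.0221), and -6.02 ± 1.81 (adjusted p = 0.0864) without MYC-Gfi1 replicate 2. The 3′ end of Syn1 overlaps Araf on the other strand. Rab3c, a relative of Rab3a, was at 52.3 and 143 CPM in MYC-Gfi1, 3.81, 15.3 and 1.39 CPM in MYC-Otx2, 1.23, 6.85 and 0.860 CPM in S100b MYC-Gfi1 and 0.857, 0 and 2.84 CPM in N1ICD, and differed between N1ICD and MYC-Gfi1 by -6.33 ± 1.42 (adjusted p = 0.0232). That became -5.43 ± 1.56 (adjusted p = 0.0806) without MYC-Gfi1 replicate 2. Syn2, synapsin II, was not called by edgeR, although DESeq2 called it in N1ICD and MYC-Otx2 against MYC-Gfi1; it was at 63.2 and 193 CPM in MYC-Gfi1, 5.51, 17.6 and 2.20 CPM in MYC-Otx2, 1.75, 46.8 and 17.7 CPM in S100b MYC-Gfi1 and 12.9, 3.49 and 9.74 CPM in N1ICD.

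Snap91 codes for AP180, which assembles clathrin coats during vesicle recovery, and it was the 1 gene of the 37 with its highest group mean outside MYC-Gfi1. It was at 41.8 and 79.3 CPM in MYC-Gfi1, 73.5, 87.8 and 61.4 CPM in MYC-Otx2, 0.194, 20.5 and 1.64 CPM in S100b MYC-Gfi1 and 4.29, 1.05 and 2.03 CPM in N1ICD. The constitutive groups overlap, and S100b MYC-Gfi1 and N1ICD lie below both of them. N1ICD differed from MYC-Otx2 by -4.94 ± 1.34 (adjusted p = 0.0286), lost when any 1 of the 6 libraries was left out (adjusted p 0.0528 to 0.0854). That call was also lost with limma-voom and with no low-count filter. The S100b difference from MYC-Otx2 was -3.31 ± 1.17 (adjusted p = 0.0754) and that of MYC-Otx2 from MYC-Gfi1 was 0.29 ± 1.21 (adjusted p = 0.895), so edgeR called neither; DESeq2 called the former.

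**Figure D4:**
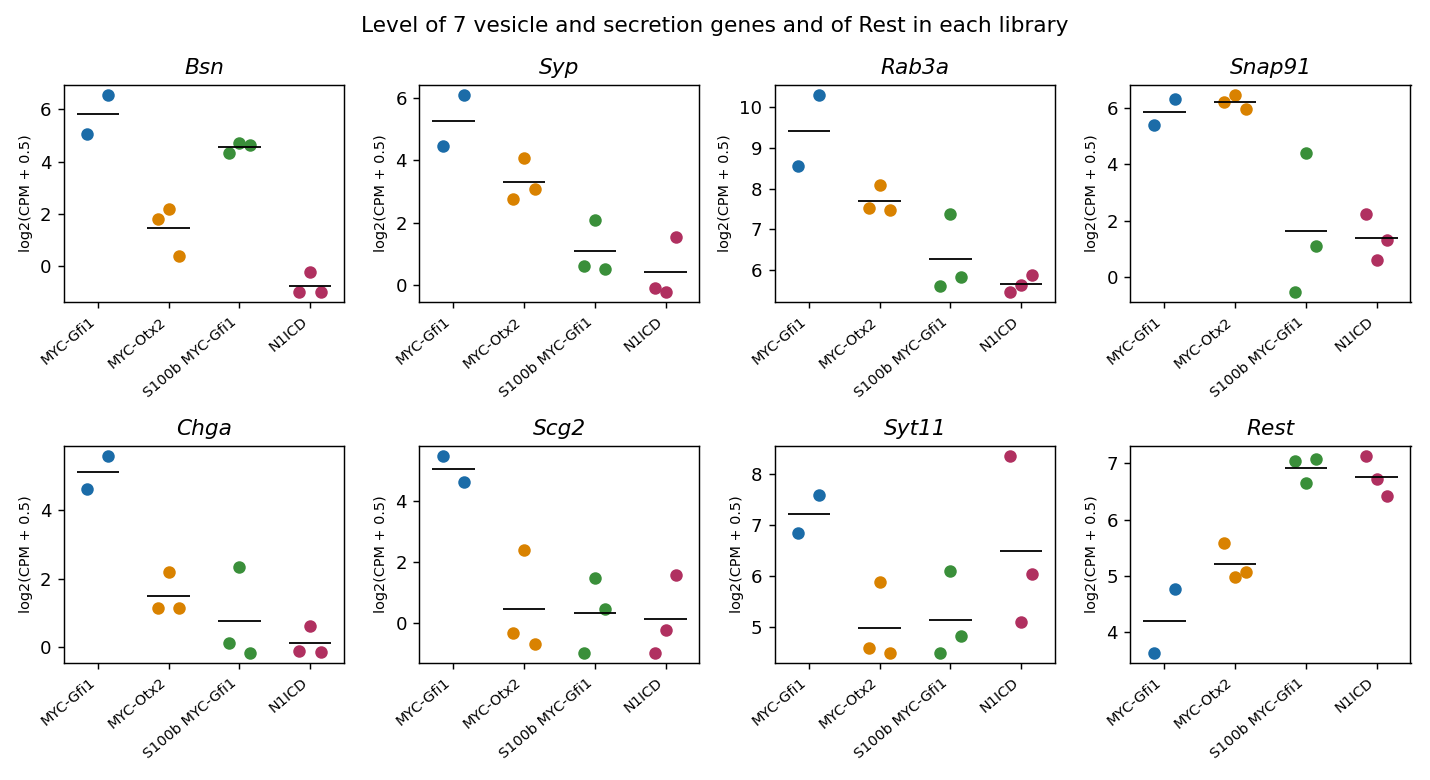
Level of Bsn, Syp, Rab3a, Snap91, Chga, Scg2, Syt11 and Rest as log2(CPM + 0.5) in the 4 groups; points are libraries and black lines are group means on that scale. Bsn separates all 3 S100b MYC-Gfi1 libraries from the N1ICD and MYC-Otx2 libraries, and Rest lies highest in the S100b MYC-Gfi1 and N1ICD groups.

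Of the 6 SNARE proteins and complexins, 5 were lower in N1ICD than in MYC-Gfi1 tumours (Cplx1, Vamp2, Snap25, Cplx2 and Vamp1), and 0 of these 5 stayed called without MYC-Gfi1 replicate 2. Snap25, a plasma membrane SNARE, was at 45.5 and 789.5 CPM in MYC-Gfi1, 34.2, 75.1 and 30.5 CPM in MYC-Otx2, 0.129, 32.0 and 12.6 CPM in S100b MYC-Gfi1 and 9.86, 2.79 and 6.90 CPM in N1ICD. MYC-Gfi1 replicate 1 lies within the MYC-Otx2 range. The N1ICD difference from MYC-Gfi1 was -6.01 ± 1.62 (adjusted p = 0.0412), and -2.82 ± 1.52 (adjusted p = 0.288) without MYC-Gfi1 replicate 2. Vamp2, the vesicle SNARE synaptobrevin 2, was at 33.8 and 235 CPM in MYC-Gfi1, 69.4, 51.8 and 45.2 CPM in MYC-Otx2, 16.1, 27.9 and 24.4 CPM in S100b MYC-Gfi1 and 33.4, 14.3 and 19.5 CPM in N1ICD. All 3 MYC-Otx2 libraries are above MYC-Gfi1 replicate 1, and N1ICD replicate 1 nearly equals it. The N1ICD difference was -2.59 ± 0.66 (adjusted p = 0.0349), and -0.61 ± 0.48 (adjusted p = 0.466) without replicate 2.

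Complexins clamp the SNARE complex until calcium arrives. Cplx1 was at 45.7 and 284 CPM in MYC-Gfi1, 11.7, 16.1 and 8.55 CPM in MYC-Otx2, 2.85, 38.3 and 6.02 CPM in S100b MYC-Gfi1 and 6.43, 2.09 and 11.8 CPM in N1ICD, with S100b MYC-Gfi1 replicate 2 close to MYC-Gfi1 replicate 1. Its N1ICD difference from MYC-Gfi1 was -4.61 ± 1.16 (adjusted p = 0.0336), and -2.77 without MYC-Gfi1 replicate 2. The call was lost there and with DESeq2 and limma-voom. Cplx2 was at 14.3 and 307 CPM in MYC-Gfi1, 12.4, 13.6 and 11.2 CPM in MYC-Otx2, 2.14, 15.0 and 6.26 CPM in S100b MYC-Gfi1 and 15.9, 4.53 and 2.03 CPM in N1ICD. N1ICD replicate 1 lies above MYC-Gfi1 replicate 1, so these groups overlap although they were called different, by -4.44 ± 1.21 (adjusted p = 0.0428). The difference was -0.96 ± 1.06 (adjusted p = 0.610) without MYC-Gfi1 replicate 2. Vamp1, the related vesicle SNARE, overlapped in the same way, with -3.15 and then -0.05 on the log2 scale. Stx1a, the syntaxin of the plasma membrane, was low everywhere, at 4.20 and 5.52 CPM in MYC-Gfi1, 0.565, 1.49 and 0.462 CPM in MYC-Otx2, 0.971, 2.63 and 1.64 CPM in S100b MYC-Gfi1 and 0.429, 3.14 and 2.43 CPM in N1ICD. It was not called by edgeR, whereas DESeq2 called it in MYC-Otx2 against MYC-Gfi1.

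None of the 3 vesicular transmitter transporters was called in any comparison in the edgeR fit of 11 libraries with TMM factors (at an unadjusted p under 0.05, 2 passed in N1ICD against MYC-Gfi1, 3 in S100b MYC-Gfi1 against MYC-Gfi1 and 1 in MYC-Otx2 against MYC-Gfi1; DESeq2 called Slc17a7 in the first and Slc17a6 in the last). Slc17a6 was also called in the last by limma-voom and with RLE factors, and by limma-voom in S100b MYC-Gfi1 against MYC-Gfi1. Slc17a7, the vesicular glutamate transporter of granule cells, was at 0 and 339 CPM in MYC-Gfi1, 10.5, 15.4 and 2.89 CPM in MYC-Otx2, 0, 4.63 and 1.33 CPM in S100b MYC-Gfi1 and 1.29, 0.349 and 0 CPM in N1ICD. It was not detected in MYC-Gfi1 replicate 1, where 3 counts correspond to 0.350 CPM, although replicate 2 held 339 CPM. Slc32a1, the transporter that loads GABA and glycine, was at 4.20 and 157 CPM in MYC-Gfi1, 9.32, 25.7 and 0.116 CPM in MYC-Otx2, 0, 1.87 and 1.72 CPM in S100b MYC-Gfi1 and 0.429, 0 and 4.46 CPM in N1ICD. Slc17a6, the second glutamate transporter, did not share the jump between the MYC-Gfi1 libraries, with 1.40 and 2.47 CPM. It had 0 counts in all 3 MYC-Otx2 libraries, so against a floor of 3 counts over that group it was at least 14.9-fold higher in MYC-Gfi1. Slc17a6 had more than 1 count only in MYC-Gfi1 (12 and 17 counts), and passed the low-count filter through that group alone. Its edgeR adjusted p of 0.0505 (not called) and the calls above therefore give the difference no independent support.

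Bsn, alone among the 5 genes of the active zone and the 37 as a whole, was called in 5 of the 6 comparisons. It codes for bassoon, a giant scaffold protein that organises the active zone, and lies at chr9:108096022-108190384 on the minus strand (GRCm38). Of 4 annotated genes that overlap it, Gm47303 and Gm37247 share its strand and 4930447F24Rik and Gm37201 do not. None of them lies within 500 bases of its 3′ end, and their part in its counts was not tested. Bsn was at 32.8 and 93.8 CPM in MYC-Gfi1, 2.97, 4.11 and 0.809 CPM in MYC-Otx2, 19.9, 25.5 and 24.7 CPM in S100b MYC-Gfi1 and 0, 0.349 and 0 CPM in N1ICD. The 3 S100b libraries sit close together, all above the MYC-Otx2 libraries and all above the N1ICD libraries, which held 1 count between them. The N1ICD difference from S100b MYC-Gfi1 was -7.34 ± 0.98 (adjusted p = 0.0151); the ratio of counts was 178 (exact 95% counting interval 31.9 to 7040). That call was lost without S100b replicate 2 (adjusted p = 0.0515) or replicate 3 (adjusted p = 0.0646), and with limma-voom (adjusted p = 0.0704).

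The rise of Bsn in S100b MYC-Gfi1 over MYC-Otx2 was 3.15 ± 0.64 (adjusted p = 0.0110) and held in all 16 alternatives tried. Within the S100b group the pan-neuronal markers summed to 170.5, 994 and 213 CPM over replicates 1 to 3 while Bsn was at 19.9, 25.5 and 24.7 CPM. Bsn was lower in MYC-Otx2 than in MYC-Gfi1, with a log2 difference of -4.59 ± 0.70 (adjusted p = 0.0136), and -3.63 ± 0.72 (adjusted p = 0.0493) without MYC-Gfi1 replicate 2; without MYC-Otx2 replicate 1 the adjusted p was 0.0559. For N1ICD against MYC-Gfi1 the fitted difference was -8.78 ± 1.01 (adjusted p = 0.00271), and -7.84 ± 1.01 (adjusted p = 0.0102) without MYC-Gfi1 replicate 2, with a ratio of counts of 460 (interval 82.3 to 18170). For N1ICD against MYC-Otx2 it was -4.19 ± 1.06 (adjusted p = 0.0215), with a ratio of 19.7 (interval 3.4 to 790). The latter call was lost without N1ICD replicate 1 or 3 or MYC-Otx2 replicate 1 or 2 (adjusted p 0.0551 to 0.0616). With limma-voom it was also lost (adjusted p = 0.222). S100b against MYC-Gfi1 was the comparison without a call, -1.44 ± 0.64 (adjusted p = 0.204), or -0.48 ± 0.76 (adjusted p = 0.795) without MYC-Gfi1 replicate 2.

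Pclo, which codes for piccolo, the partner scaffold of bassoon, did not share that pattern. It was at 16.3 and 125 CPM in MYC-Gfi1, 1.70, 6.60 and 9.01 CPM in MYC-Otx2, 0.194, 21.9 and 2.74 CPM in S100b MYC-Gfi1 and 3.00, 1.39 and 5.27 CPM in N1ICD, and was called neither by edgeR nor by DESeq2 in any comparison. Rims1, a scaffold that links Rab3 to the release site, was at 3.96 and 237 CPM in MYC-Gfi1, 5.51, 11.1 and 1.27 CPM in MYC-Otx2, 19.8, 15.1 and 13.6 CPM in S100b MYC-Gfi1 and 14.6, 0 and 0.812 CPM in N1ICD. Its 3 S100b libraries lie above the 3 MYC-Otx2 libraries and above MYC-Gfi1 replicate 1, as those of Bsn lie above MYC-Otx2, but the difference from MYC-Otx2 was 1.44 ± 1.39 (adjusted p = 0.495). Unc13a, a priming factor, was at 15.2 and 34.3 CPM in MYC-Gfi1, 1.13, 5.61 and 2.89 CPM in MYC-Otx2, 3.75, 8.64 and 4.30 CPM in S100b MYC-Gfi1 and 2.57, 3.14 and 1.22 CPM in N1ICD. It was lower in N1ICD (-3.40 ± 0.75, adjusted p = 0.0213) and in MYC-Otx2 (-2.94 ± 0.71, adjusted p = 0.0441) than in MYC-Gfi1, and both calls were lost without MYC-Gfi1 replicate 2, at -2.71 and -2.23. Its 3′ end overlaps Colgalt1 on the other strand. The related Unc13c was not called by edgeR (DESeq2 called it in S100b MYC-Gfi1 and MYC-Otx2 against MYC-Gfi1), with 4.08 and 39.9 CPM in MYC-Gfi1 and 0.283 to 10.3 CPM in the other groups.

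Of the 6 granin and dense-core vesicle genes, 4 were lower in N1ICD than in MYC-Gfi1 tumours (Chga, Scg5, Chgb and Cadps). All 6 had every N1ICD library below both MYC-Gfi1 libraries (19.8% of all genes). Chga, chromogranin A, the classical serum and tissue marker of neuroendocrine cells, was at 24.4 and 48.1 CPM in MYC-Gfi1, 1.70, 4.11 and 1.73 CPM in MYC-Otx2, 0.582, 4.63 and 0.391 CPM in S100b MYC-Gfi1 and 0.429, 1.05 and 0.406 CPM in N1ICD. Both MYC-Gfi1 libraries are far above the other 9. The difference from MYC-Gfi1 was -5.78 ± 1.13 (adjusted p = 0.0150) in N1ICD, -4.26 ± 0.97 (adjusted p = 0.0391) in S100b MYC-Gfi1 and -3.84 ± 0.96 (adjusted p = 0.0481) in MYC-Otx2. Without MYC-Gfi1 replicate 2 these became -5.22 ± 1.27 (adjusted p = 0.0501), -3.68 ± 1.13 (adjusted p = 0.165) and -3.26 ± 1.13 (adjusted p = 0.162), of which 0 were called.

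Scg2, secretogranin II, is the 1 gene of the 37 with its highest level in MYC-Gfi1 replicate 1. It was at 44.2 and 24.1 CPM in MYC-Gfi1, 0.283, 4.73 and 0.116 CPM in MYC-Otx2, 0, 2.28 and 0.860 CPM in S100b MYC-Gfi1 and 0, 0.349 and 2.43 CPM in N1ICD. Both MYC-Gfi1 values are well above all of the other 9 libraries, yet edgeR did not call the comparisons: -5.19 ± 1.80 (adjusted p = 0.0862) in N1ICD, -5.01 ± 1.67 (adjusted p = 0.108) in S100b MYC-Gfi1 and -4.30 ± 1.63 (adjusted p = 0.127) in MYC-Otx2. DESeq2 called it in N1ICD and S100b MYC-Gfi1, and limma-voom in S100b MYC-Gfi1 and MYC-Otx2. Its values without MYC-Gfi1 replicate 2 were -5.57, -5.37 and -4.67. Scg2 is also the gene whose window holds both RE1 arms side by side and a cyclic AMP response element.

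Scg5, the chaperone of prohormone convertase 2, was at 185 and 793 CPM in MYC-Gfi1, 44.4, 80.1 and 20.8 CPM in MYC-Otx2, 6.73, 54.6 and 44.3 CPM in S100b MYC-Gfi1 and 34.3, 9.76 and 7.30 CPM in N1ICD. Both MYC-Gfi1 libraries exceed all others, and N1ICD differed by -4.84 ± 1.04 (adjusted p = 0.0201), or -3.45 ± 1.06 (adjusted p = 0.0929) without MYC-Gfi1 replicate 2. Chgb, chromogranin B, was at 22.6 and 354 CPM in MYC-Gfi1, 13.6, 14.2 and 0.924 CPM in MYC-Otx2, 0.324, 30.3 and 4.69 CPM in S100b MYC-Gfi1 and 0.429, 1.05 and 1.22 CPM in N1ICD. S100b MYC-Gfi1 replicate 2 is above MYC-Gfi1 replicate 1 here, whereas the N1ICD libraries are all at 3 counts or fewer. The N1ICD difference was -7.67 ± 1.96 (adjusted p = 0.0352), and -4.63 without MYC-Gfi1 replicate 2. The call was lost there and with DESeq2 and limma-voom. Cadps, which primes dense-core vesicles, was at 3.61 and 82.5 CPM in MYC-Gfi1, 2.12, 14.0 and 5.20 CPM in MYC-Otx2, 0, 1.04 and 0.860 CPM in S100b MYC-Gfi1 and 0.857, 0.349 and 1.62 CPM in N1ICD, with -5.51 ± 1.56 (adjusted p = 0.0484) for N1ICD and -1.95 ± 1.54 (adjusted p = 0.469) without replicate 2. Scg3, secretogranin III, was not called by edgeR, although DESeq2 called it in N1ICD against MYC-Gfi1; it was at 31.7 and 110.4 CPM in MYC-Gfi1, 3.53, 18.8 and 12.8 CPM in MYC-Otx2, 0.0647, 17.1 and 7.19 CPM in S100b MYC-Gfi1 and 7.29, 0.349 and 9.74 CPM in N1ICD.

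Of the 5 adhesion and postsynaptic genes, 3 were lower in N1ICD than in MYC-Gfi1 tumours (Nlgn1, Camk2b and Nptxr). Camk2b, a subunit of the calcium/calmodulin-dependent kinase, was at 73.7 and 273 CPM in MYC-Gfi1, 10.9, 25.8 and 2.66 CPM in MYC-Otx2, 18.1, 14.6 and 9.93 CPM in S100b MYC-Gfi1 and 3.00, 7.67 and 3.25 CPM in N1ICD. The MYC-Gfi1 libraries again exceed all others. The difference from MYC-Gfi1 was -5.20 ± 0.91 (adjusted p = 0.0109) in N1ICD, -3.61 ± 0.83 (adjusted p = 0.0411) in S100b MYC-Gfi1 and -3.73 ± 0.84 (adjusted p = 0.0374) in MYC-Otx2. Without MYC-Gfi1 replicate 2 the first was -3.98 ± 0.91 (adjusted p = 0.0429), the second -2.36 ± 0.88 (adjusted p = 0.234) and the last -2.49 ± 0.88 (adjusted p = 0.169).

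Its partner Camk2a, the main subunit of forebrain neurons, was at 1.05 and 28 CPM in MYC-Gfi1, 0.706, 0.747 and 0 CPM in MYC-Otx2, 0.0647, 1.24 and 0.704 CPM in S100b MYC-Gfi1 and 11.1, 4.18 and 1.62 CPM in N1ICD. The N1ICD libraries lie above every MYC-Otx2 and S100b library, but edgeR did not call the differences, at 3.52 ± 1.48 (adjusted p = 0.112) and 3.04 ± 1.40 (adjusted p = 0.275); DESeq2 called the former. Nlgn1, the adhesion protein neuroligin 1, was at 8.74 and 30.6 CPM in MYC-Gfi1, 3.96, 3.86 and 2.66 CPM in MYC-Otx2, 2.78, 3.25 and 5.63 CPM in S100b MYC-Gfi1 and 1.71, 0.349 and 0.812 CPM in N1ICD. It was lower in N1ICD than in MYC-Gfi1, with a log2 difference of -4.37 ± 0.77 (adjusted p = 0.0108), and -3.21 ± 0.80 (adjusted p = 0.0537) without MYC-Gfi1 replicate 2.

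Nptxr, a receptor for neuronal pentraxins, was at 37.5 and 774 CPM in MYC-Gfi1, 20.3, 15.3 and 1.27 CPM in MYC-Otx2, 2.78, 9.61 and 3.05 CPM in S100b MYC-Gfi1 and 5.57, 5.93 and 1.22 CPM in N1ICD. Its differences from MYC-Gfi1 were -6.57 ± 1.42 (adjusted p = 0.0206) in N1ICD and -6.30 ± 1.36 (adjusted p = 0.0353) in S100b MYC-Gfi1, and -3.15 ± 1.19 (adjusted p = 0.152) and -2.85 ± 1.15 (adjusted p = 0.272) without replicate 2. Dlg4, which codes for PSD-95, the scaffold of excitatory postsynapses, was at 53.6 and 195 CPM in MYC-Gfi1, 5.51, 27.8 and 11.2 CPM in MYC-Otx2, 17.1, 16.9 and 11.2 CPM in S100b MYC-Gfi1 and 44.2, 10.5 and 24.8 CPM in N1ICD. It was lower in MYC-Otx2 than in MYC-Gfi1, with a log2 difference of -3.07 ± 0.77 (adjusted p = 0.0481), and -1.85 ± 0.81 (adjusted p = 0.246) without replicate 2.

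Rest (chr5:77265491-77286432) codes for the repressor that binds RE1 elements and holds many neuronal genes silent outside neurons. It was at 11.9 and 26.9 CPM in MYC-Gfi1, 47.2, 31.0 and 32.9 CPM in MYC-Otx2, 132, 100.2 and 134 CPM in S100b MYC-Gfi1 and 140.2, 105 and 84.8 CPM in N1ICD. It was lowest in MYC-Gfi1, where the summed vesicle genes were highest, then MYC-Otx2, with S100b MYC-Gfi1 and N1ICD overlapping at the top. Rest was higher in N1ICD than in MYC-Gfi1 by 2.50 ± 0.41 (adjusted p = 0.00804) and than in MYC-Otx2 by 1.57 ± 0.33 (adjusted p = 0.0112). It was higher in S100b MYC-Gfi1 than in MYC-Gfi1 by 2.65 ± 0.41 (adjusted p = 0.0177) and than in MYC-Otx2 by 1.72 ± 0.33 (adjusted p = 0.00917). The comparisons with MYC-Otx2 held in all 16 alternatives, and without MYC-Gfi1 replicate 2 those with MYC-Gfi1 were 3.20 (adjusted p = 0.0105) for N1ICD and 3.37 (adjusted p = 0.0386) for S100b MYC-Gfi1. The S100b MYC-Gfi1 call was lost without S100b replicate 1 (adjusted p = 0.0585) or replicate 3 (adjusted p = 0.0555). Within the MYC-Gfi1 group, replicate 2, with the highest vesicle gene sum of all, had more Rest than replicate 1. Of the 10 genes of the list of Rest and its corepressors, 1 was higher (Rest) and 1 lower (Rcor2) in N1ICD than in MYC-Gfi1, and 2 were higher (Rest and Kdm1a) and 3 lower (Rcor2, Rcor3 and Ehmt2) in N1ICD than in MYC-Otx2. S100b MYC-Gfi1 had 1 higher (Rest) in either comparison with a constitutive group. Over all genes, 11.5% and 21.8% were called in the N1ICD comparisons with MYC-Gfi1 and MYC-Otx2, and 4.35% and 17.9% in those of S100b MYC-Gfi1. Rcor2, a CoREST protein, was lower in N1ICD than in MYC-Gfi1 (-3.26 ± 0.70, adjusted p = 0.0205) and MYC-Otx2 (-3.64 ± 0.68, adjusted p = 0.00672), and the former held without MYC-Gfi1 replicate 2 (-3.86 ± 0.71, adjusted p = 0.0252). The part of Rest in the levels of the 37 genes was not tested.

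A further list of 85 vesicle and secretion genes, of which 84 were in the table and 79 were tested, gave the following counts. In N1ICD against MYC-Gfi1, 20 of the 79 were lower and 1 was higher, with a median of -2.83; in S100b MYC-Gfi1 against MYC-Gfi1, 9 were lower and 0 higher. In N1ICD against MYC-Otx2, 9 were lower and 1 was higher, in S100b MYC-Gfi1 against MYC-Otx2 10 and 1, in MYC-Otx2 against MYC-Gfi1 3 and 0, and in N1ICD against S100b MYC-Gfi1 0 and 0 (edgeR; 16 of 79 passed an unadjusted p under 0.05). The shares of all genes called in this fit of 11 libraries are those given with each comparison above. This list was likewise summed highest in MYC-Gfi1 replicate 2, at 10898 CPM against 2123 CPM in replicate 1. When that library was left out, 80 genes of the list were tested and N1ICD against MYC-Gfi1 gave 3 lower and 1 higher, with a median of -0.91 (4.94% of all genes called). Neither S100b MYC-Gfi1 nor MYC-Otx2 then had any call of the list against MYC-Gfi1 (edgeR; 16 genes at an unadjusted p under 0.05 in each), while the comparisons with MYC-Otx2 gave 14 lower and 4 higher in N1ICD and 16 lower and 3 higher in S100b MYC-Gfi1. In that fit 25.0% and 21.4% of all genes were called, so these shares of 80 are near the background. N1ICD against S100b MYC-Gfi1 gave 0 lower and 1 higher (1.74% of all genes called).

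Ppfia2, a liprin that scaffolds the active zone, was at 51.9 and 65.9 CPM in MYC-Gfi1, 3.53, 12.7 and 16.8 CPM in MYC-Otx2, 2.14, 11.1 and 10.9 CPM in S100b MYC-Gfi1 and 1.29, 1.05 and 1.62 CPM in N1ICD. Unlike most of the 37 it was alike in the MYC-Gfi1 libraries, and it was lower in N1ICD than in MYC-Gfi1 (-5.47 ± 0.85, adjusted p = 0.00702) and MYC-Otx2 (-3.06 ± 0.78, adjusted p = 0.0217). The former was -5.30 ± 0.95 (adjusted p = 0.0234) without MYC-Gfi1 replicate 2. Nptx1, a neuronal pentraxin, was lower in N1ICD than in MYC-Gfi1 (-7.61 ± 1.28, adjusted p = 0.00945) and MYC-Otx2 (-6.17 ± 1.20, adjusted p = 0.00776), with 57.1 and 679 CPM in MYC-Gfi1, 139, 152 and 116 CPM in MYC-Otx2, 81.8, 10.0 and 15.1 CPM in S100b MYC-Gfi1 and 3.00, 0.697 and 2.03 CPM in N1ICD. Its difference from MYC-Gfi1 also held without that library, at -4.94 ± 1.04 (adjusted p = 0.0363). Synj1, the lipid phosphatase that uncoats vesicles, was lower than in MYC-Gfi1 in N1ICD (-2.62 ± 0.50, adjusted p = 0.0143), S100b MYC-Gfi1 (-2.61 ± 0.50, adjusted p = 0.0269) and MYC-Otx2 (-2.06 ± 0.49, adjusted p = 0.0427). Rims2, a relative of Rims1, was lower than in MYC-Gfi1 in N1ICD (-4.45 ± 0.93, adjusted p = 0.0179) and S100b MYC-Gfi1 (-4.21 ± 0.86, adjusted p = 0.0300). None of these Synj1 and Rims2 calls held without MYC-Gfi1 replicate 2: Synj1 was then -1.36 (adjusted p 0.0810), -1.33 (adjusted p 0.153) and -0.78 (adjusted p 0.315), and Rims2 -2.11 (adjusted p 0.174) and -1.85 (adjusted p 0.302).

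Cpe, which trims prohormones in dense-core vesicles, was at 213 and 990.0 CPM in MYC-Gfi1, 163, 248 and 209 CPM in MYC-Otx2, 13.1, 59.5 and 49.8 CPM in S100b MYC-Gfi1 and 47.6, 90.3 and 37.3 CPM in N1ICD; S100b MYC-Gfi1 was lower than MYC-Gfi1 (-3.88 ± 0.73, adjusted p = 0.0269) and MYC-Otx2 (-2.34 ± 0.66, adjusted p = 0.0368). Stxbp5l, a relative of tomosyn, was lower in MYC-Otx2 than in MYC-Gfi1 (-4.39 ± 1.07, adjusted p = 0.0451). Left without MYC-Gfi1 replicate 2, the comparisons with MYC-Gfi1 were not called for Cpe (-2.38 ± 0.67, adjusted p = 0.141) or Stxbp5l (-1.49 ± 1.03, adjusted p = 0.455). Stxbp5, which codes for tomosyn, was lower in N1ICD than in MYC-Otx2 (-1.60 ± 0.33, adjusted p = 0.00976), as was the vesicle protein Syngr3 (-3.92 ± 0.97, adjusted p = 0.0202).

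Cplx3, a complexin of retinal ribbon synapses, was detected only in MYC-Otx2, at 3.39, 9.84 and 4.97 CPM, with 0 counts in the other 8 libraries. Its fitted S100b difference from MYC-Otx2 rests on a prior count. Cplx3 passed the low-count filter through MYC-Otx2 alone. Its calls against that group, counted in the further list above, therefore give the difference no independent support. The photoreceptor markers were likewise highest in these 3 libraries. Bin1 and Cadps2 were also lower in S100b MYC-Gfi1 than in MYC-Otx2 (-3.18 ± 0.87, adjusted p = 0.0331 for Bin1 and -4.25 ± 1.17, adjusted p = 0.0338 for Cadps2). Genes that were higher were few. Slc18a2, the vesicular monoamine transporter, was higher in S100b MYC-Gfi1 than in MYC-Otx2 (1.59 ± 0.36, adjusted p = 0.0173), with 23.6, 21.3 and 14.6 CPM against 4.38, 6.98 and 8.32 CPM. Sypl, a relative of synaptophysin found in many tissues, was higher in N1ICD than in MYC-Gfi1 (1.04 ± 0.28, adjusted p = 0.0401), a call lost without MYC-Gfi1 replicate 2 (1.31 ± 0.33, adjusted p = 0.0550). Syt5 was higher in N1ICD than in MYC-Otx2 (7.35 ± 1.98, adjusted p = 0.0274), on values of 189, 9.76 and 3.25 CPM that differ widely within the group.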

How the data were processed

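RNA was taken from frozen tumours of 11 samples with TRIzol, and 3′ end libraries were made with the QuantSeq forward kit with molecular identifiers added, per the labels' protocols. The authors deposited raw counts per gene symbol; STAR 2.4.1d, HTSeq 0.6.1 and the build mm10 are named in the submitters' processing notes. Strand handling, merging of reads by identifier and the gene annotation were not given in the sources used here.

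Groups follow the labels. Counts were fitted with edgeR 4.0.16 (R 4.3.3; quasi-likelihood, robust, TMM factors, filterByExpr by group, all 4 groups in 1 fit, common biological coefficient of variation 0.562, 7 residual degrees of freedom). Benjamini-Hochberg adjustment ran over the 15228 genes tested of 38406, and genes were called at 0.05. CPM was computed here over TMM-scaled totals, and plots use log2(CPM + 0.5). Standard errors are the log2 change over the root of F. Gene positions are from GENCODE M21 (GRCm38). The 37 genes, the further gene lists, the marker lists and the tests were chosen with earlier results of these data known, and give no independent support to them.

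Genes given with every library were, per role, up to 4 called in any comparison by smallest adjusted p and up to 2 not called, by highest mean, plus Rest. From the further list, up to 4 called genes per direction and comparison were named, apart from 1 gene that is not reported here, and from the granule, Purkinje and neuroendocrine marker lists the 3 highest. The scripts were tested on simulated data. Alternatives were other scaling (RLE, upper quartile), mitochondrial genes left out, DESeq2 1.42.0, limma 3.58.1 (voom), only the groups compared, no filter or a stricter one, a replicate block, and each library left out. Leaving out a MYC-Gfi1 library leaves 1 in that group, whose spread is then assumed to be that of the other groups. Leaving MYC-Gfi1 replicate 2 out of the comparisons that do not use it, and out of the counts of the further list, was added after the data were seen.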

Additional observations from a re-analysis of the deposited data

How the results depend on the processing

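Counts of the 37 genes called are given in the order N1ICD against MYC-Gfi1, S100b MYC-Gfi1 against MYC-Gfi1, N1ICD against MYC-Otx2, S100b MYC-Gfi1 against MYC-Otx2, MYC-Otx2 against MYC-Gfi1 and N1ICD against S100b MYC-Gfi1. The counts were 19, 5, 4, 1, 5 and 1 in the edgeR fit of 4 groups. RLE factors gave 19, 7, 4, 1, 6 and 1, upper-quartile factors 17, 5, 4, 1, 3 and 1, and leaving out mitochondrially encoded genes 17, 5, 4, 1, 4 and 1. Of all genes, RLE factors called 11.6%, 4.35%, 21.8%, 18%, 5.7% and 1.25%. Upper-quartile factors called 11.3%, 4.86%, 21.5%, 18.1%, 5.12% and 1.15%. Without mitochondrially encoded genes, 10.7%, 4.08%, 20.9%, 17.4%, 5.06% and 1.13% were called. The stricter filter, which tested 36 of the 37 genes, gave 19, 5, 4, 1, 5 and 1, and no filter 9, 3, 3, 1, 3 and 1. Of all genes, the stricter filter called 11.6%, 4.45%, 21.9%, 18.4%, 5.64% and 1.22%. No filter called 5.19%, 1.88%, 10.8%, 9.06%, 2.92% and 0.847%. DESeq2 called 27, 23, 8, 4, 20 and 1, and limma-voom 5, 15, 0, 2, 8 and 0, with 4 and 2 genes at an unadjusted p under 0.05 where it called 0. Of all genes, DESeq2 called 22.1%, 15.1%, 30.6%, 28.4%, 17.7% and 8.93%, and limma-voom 6.66%, 9.14%, 14.6%, 24.2%, 9.04% and 0.834%. Fits of only the groups compared tested 34, 37, 28, 34, 36 and 28 of the 37 genes. They called 0, 0, 8, 4, 2 and 1 of them, beside 0.122%, 0%, 26.7%, 33.9%, 2.71% and 0.636% of all genes. In the first 2, 28 and 25 of the 37 genes had an unadjusted p under 0.05. Over all genes, 2580 of 12317 and 3287 of 15217 did. The cause of these differences was not tested.

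The replicate block gave 9, 3, 5, 4, 2 and 1, beside 5.18%, 0.67%, 14.5%, 12.5%, 1.37% and 0.387% of all genes. Correlations of same-numbered deviations ran from -0.169 to 0.187. With 2 or 3 libraries per group they cannot settle whether the replicate numbers pair the samples. Leaving out 1 library gave 4 to 26, 0 to 23, 0 to 6, 1 to 4, 0 to 20 and 0 to 1. The highest counts against MYC-Gfi1 came without MYC-Gfi1 replicate 1. The shares of all genes called in these comparisons were then also the highest of the fits with 1 library left out. Without MYC-Gfi1 replicate 2, most calls against MYC-Gfi1 were lost, as given above. The calls that do not use that group all held. The libraries they compare were unchanged in that fit, so it could not test those libraries. Of the 35 calls, 32 held under DESeq2, 20 under the block and 15 under limma-voom, and none of the 35 turned its direction under any alternative. Those lost under DESeq2 were Syt4, Cplx1 and Chgb, all in N1ICD against MYC-Gfi1. Fits of only the groups compared also ended the call of Bsn in N1ICD against MYC-Gfi1 (adjusted p = 0.0714) and those of Rest in N1ICD (adjusted p = 0.107) and S100b MYC-Gfi1 (adjusted p = 0.134) against MYC-Gfi1; with the block the last had an adjusted p of 0.0507. With 1 library left out, the median log2 difference ran from -1.70 to 0.20 for S100b MYC-Gfi1 against MYC-Otx2 and from -1.20 to 0.41 for N1ICD against S100b MYC-Gfi1. It turned sign in 2 cases: S100b MYC-Gfi1 against MYC-Otx2 to 0.20 without MYC-Otx2 replicate 2, and N1ICD against S100b MYC-Gfi1 to 0.41 without S100b MYC-Gfi1 replicate 2. Depth limits the N1ICD group most, where 3 counts are 1.05 to 1.29 CPM.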
